A study of Mus musculus with 6 samples.

Results

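The guanylate-binding protein (Gbp) family of the mouse was followed in haematopoietic stem and progenitor cells of dopamine receptor knockout mice. Its 10 members here, out of 38926 gene symbols in the deposited table, are the rows whose symbol is exactly Gbp2, Gbp2b, Gbp3, Gbp4, Gbp5, Gbp6, Gbp7, Gbp8, Gbp9 or Gbp10. The family was chosen by the FPKM of Gbp2b, which was at 0 in all libraries of one genotype and present in all of the other, so the values of Gbp2b are given as a description with no test. The other 9 members, called relatives below, were taken for their family name, and the question was whether they follow Gbp2b.

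RNA was sequenced from LSK cells (a gate of low lineage markers with Sca1 and cKit on the surface, which holds stem cells and multipotent progenitors) of the femur and tibia marrow of C57BL/6 mice aged 8 to 12 weeks. There were 3 libraries labelled Drd2 Drd3 double knockout (KO) and 3 labelled wild type (WT), all from untreated mice. The labels give the genotype without the design of the alleles. They name no animal for a library, so the p-values below measure only how these samples scatter, which may be technical. Values are FPKM, read numbers scaled by the authors for gene length and depth, so levels of different genes can be compared per length.

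The proteins of this family are large GTPases whose genes are switched on by interferons, above all by interferon gamma through its receptor, the kinases Jak1 and Jak2 and transcription factors such as Irf1. In infected macrophages they gather on vacuoles and bacteria, damage their membranes and help to start inflammasome signalling. Mouse genes of the family lie in one cluster on chromosome 3 and another on chromosome 5, and interferon gamma is also known to act on blood stem cells.

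The chromosome 3 cluster holds Gbp5, Gbp7, Gbp3, Gbp2b and Gbp2 in this order, and their promoters are shown because interferon is known to act on this family through short promoter elements. RefSeq (build GRCm38.p6, which is mm10) gave start sites for 5 of the 10 members and none for Gbp4, Gbp6, Gbp8, Gbp9 and Gbp10. The 250 bases before the RefSeq start are printed 5′ to 3′ for Gbp2b, for its neighbour Gbp2, for Gbp7 and for Gbp5, all on the plus strand. Gene positions given further below are those of the GENCODE M21 annotation, whose gene starts can differ. There Gbp5 starts at 142493978, upstream of its window, and Gbp2 at 142620602, inside its window. Capitals mark matches to the interferon-stimulated response element (ISRE: GAAA, any 2 bases, GAAA, or on the other strand TTTC, any 2 bases, TTTC) and to the gamma-activated site (GAS, TTCNNNGAA, which reads the same on both strands).
Gbp2b (chr3:142594597-142594846): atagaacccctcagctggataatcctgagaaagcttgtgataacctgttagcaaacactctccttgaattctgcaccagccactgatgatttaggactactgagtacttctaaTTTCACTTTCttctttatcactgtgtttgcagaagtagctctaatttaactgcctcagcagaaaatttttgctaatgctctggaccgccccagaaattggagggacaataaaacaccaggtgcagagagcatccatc
Gbp2 (chr3:142620413-142620662): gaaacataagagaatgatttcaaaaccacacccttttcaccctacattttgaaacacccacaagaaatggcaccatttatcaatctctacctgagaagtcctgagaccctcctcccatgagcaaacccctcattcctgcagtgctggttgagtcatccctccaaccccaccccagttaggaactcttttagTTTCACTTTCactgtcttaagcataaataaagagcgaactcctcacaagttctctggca
Gbp7 (chr3:142530086-142530335): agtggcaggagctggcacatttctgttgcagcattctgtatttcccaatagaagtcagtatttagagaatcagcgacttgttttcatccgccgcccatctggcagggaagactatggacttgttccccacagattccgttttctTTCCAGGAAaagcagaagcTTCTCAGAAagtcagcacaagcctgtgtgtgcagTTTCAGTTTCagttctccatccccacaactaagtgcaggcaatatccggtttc
Gbp5 (chr3:142496684-142496933): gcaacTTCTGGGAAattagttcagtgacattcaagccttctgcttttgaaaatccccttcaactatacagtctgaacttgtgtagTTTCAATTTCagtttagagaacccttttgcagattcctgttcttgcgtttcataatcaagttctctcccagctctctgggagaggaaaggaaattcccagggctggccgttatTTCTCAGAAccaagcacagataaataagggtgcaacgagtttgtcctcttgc

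Each of the 5 chromosome 3 members had an ISRE match in the window of at least 1 start. Of the 6 windows (Gbp3 has 2 starts), 5 held an ISRE match, against 2.98% of 32851 RefSeq promoter windows of the same length. The matched letters were identical in Gbp2b and Gbp2, TTTCACTTTC, at bases -137 to -128 from the start in Gbp2b and -59 to -50 in Gbp2. In Gbp7 the ISRE match lay at -53 to -44 and in Gbp5 at -165 to -156, while the upstream window of Gbp3 held 2 overlapping matches between -45 and -30. The GAS letters were found in 2 windows, those of Gbp7 and Gbp5, with 2 matches each, against 7.02% of all windows. These are matches of letters, not sites shown to be bound.

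Before the results, 3 features of the libraries bear on them. Whole reads recovered from the FPKM steps came to 5245416 to 7143658 per library, and the correlation of log2 values (Pearson's r over genes) was 0.963 to 0.970 within KO and 0.983 to 0.985 within WT. The targeted gene Drd3 had 1.62, 3.08 and 3.04 FPKM in the libraries with the KO label and 0 in those labelled WT, and Drd2 was at 0 in all 6. For Drd3 this is the reverse of what the labels would give if the KO alleles made no RNA. The design of those alleles is not given, and the cause was not tested. Every direction below is therefore one between libraries labelled KO and libraries labelled WT. Those labelled KO replicates 1 and 3 lacked the Y-linked transcript Ddx3y, while that labelled KO replicate 2 and all labelled WT had it (12.5 to 15.1 FPKM). The same 2 libraries were high in Igkc, an antibody light chain gene, at 3182 and 1173 FPKM, while KO replicate 2 had 4.93 FPKM and the libraries labelled WT had 1.98 to 2.48 FPKM. The gate's own markers were present in all 6, with Kit at 82.5 to 129 FPKM in KO and 105 to 150 FPKM in WT and Ly6a (Sca1) at 114 to 161 FPKM in KO and 110 to 129 FPKM in WT. The lineage markers Cd3e and Cd8a were at 0.238 FPKM at most in any library, while Fcgr3, a myeloid marker, rose (limma).

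**Figure D1:**
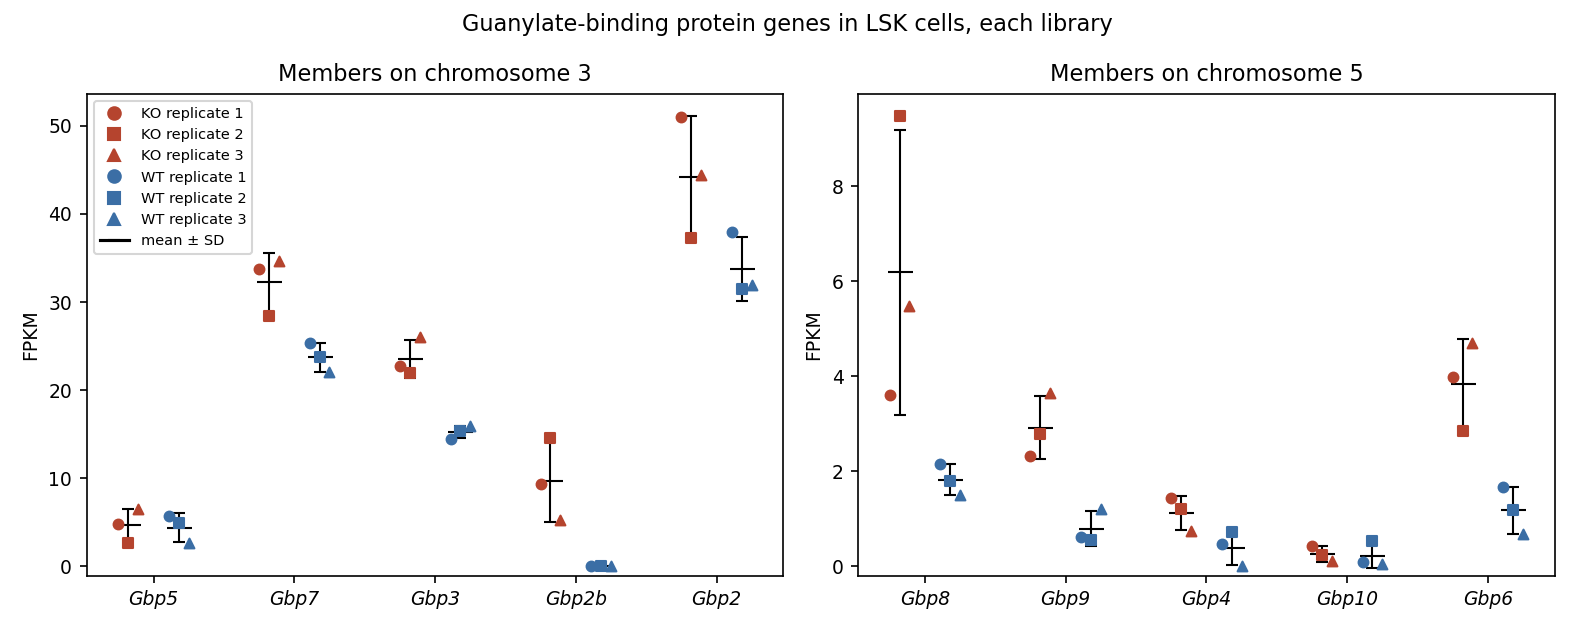
FPKM of the 10 members in each library, with the labelled KO libraries left of the WT libraries. Black lines are the mean and SD of 3 libraries. Gbp2b is at 0 in the 3 libraries labelled WT and between 5.22 and 14.6 in those labelled KO, and both Gbp5 and Gbp10 overlap between the groups.

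Gbp2b (ENSMUSG00000040264, chromosome 3, 142594847 to 142619179, GRCm38, plus strand), known earlier as Gbp1, is an antimicrobial member whose induction by interferon is known to differ between inbred mouse strains. KO replicates 1, 2 and 3, as labelled, had 9.28, 14.6 and 5.22 FPKM, and all 3 libraries labelled WT had 0. These values stood on 189, 285 and 80 recovered reads in the libraries labelled KO and on 0 reads in those labelled WT, so the groups did not overlap. With 3 reads per WT library as the floor (0.170 to 0.181 FPKM), the mean of 9.70 ± 4.71 FPKM in the libraries labelled KO (SD, n = 3) was at least 55.8-fold higher, a bound that covers counting error only. The library labelled KO replicate 2, the one KO library with Y-linked transcripts, was the highest. Among all tested genes, 15 were at 0 in the 3 libraries labelled WT and above 0 in the 3 labelled KO, and Gbp2b ranked number 4 of them by its KO mean. In the same cells Gbp2b reached 11.7 to 39.2% of the FPKM of Gbp2, its nearest neighbour.

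The relatives were tested in the comparison of all genes, with limma on log2(FPKM + 1) for the 11371 genes whose mean reached 1 FPKM, where a gene was called at a Benjamini-Hochberg adjusted p under 0.05. Of the 9 relatives, 7 passed this filter, Gbp4 and Gbp10 did not, and Gbp9 passed only through the KO libraries, since its WT mean was 0.792 FPKM. Gbp3, Gbp6, Gbp7, Gbp8 and Gbp9 were called higher in the libraries labelled KO (5 of 7, where 5.48% of all tested genes were called higher), Gbp2 and Gbp5 were not called, and 0 were called lower by limma, by voom or at an unadjusted p under 0.05 (5.43% of all tested genes were called lower). Leaving out Gbp9, the count was 4 of 6. All 9 relatives had a higher mean in KO, where the median log2 difference of all tested genes was -0.002. In Gbp5 (4.64 against 4.39 FPKM in WT) and Gbp10 (0.261 against 0.223 FPKM) the means differed by less than their SD, so these 2 show no clear direction. At an unadjusted p under 0.05, 6 of the 7 tested relatives differed (27.5% of all tested genes). In 6 of the 9 the KO and WT values did not overlap, each with KO higher. One of these, Gbp4, was under the filter and barely apart (at least 0.731 FPKM in KO, at most 0.714 FPKM in WT). Among the tested relatives the count was 5 of 7, or 4 of 6 without Gbp9. Of all tested genes, 32.8% did not overlap, and 16.2% did so with KO higher. Fewer relatives, and fewer genes of the whole table, were called when 1 WT library was left out. Calls over all tested genes went from 1240 to 535, 376 and 512 without WT replicates 1, 2 and 3. In the same fits the number of relatives called was 1 (Gbp6), 0 and 2 (Gbp3 and Gbp9). At an unadjusted p under 0.05 (limma), 6, 5 and 5 relatives still differed. Without KO replicate 1, 3 relatives (Gbp3, Gbp8 and Gbp9) and 859 genes in all were called.

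**Figure D2:**
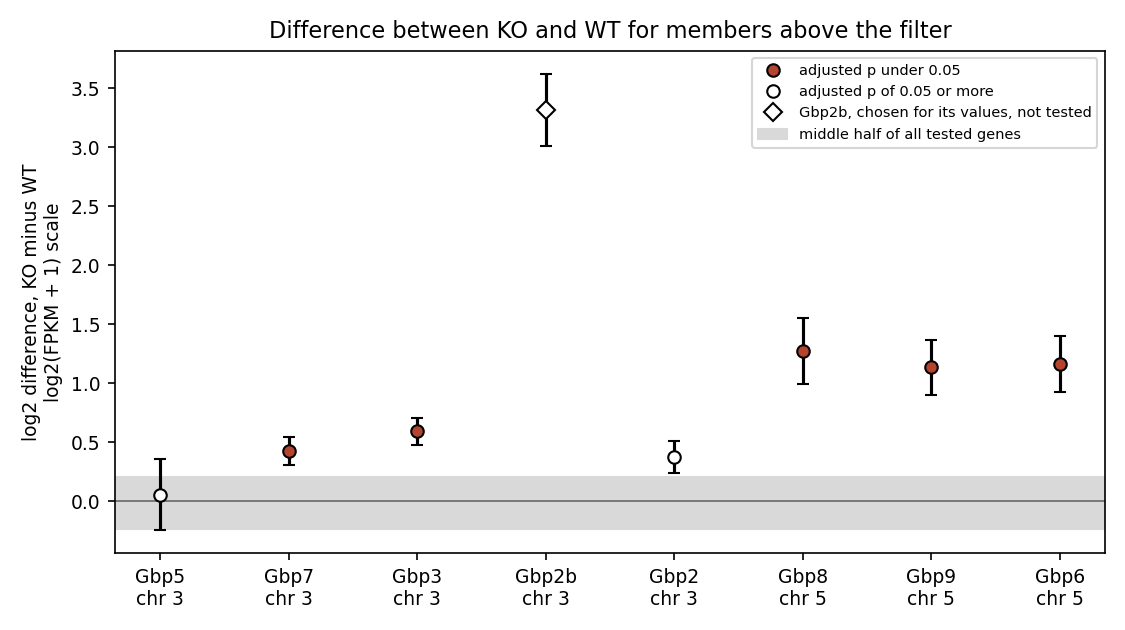
Difference of the mean log2(FPKM + 1), KO minus WT as labelled, with the SE, for the 8 members above the filter in the order of their position. The grey band runs from the lower to the upper quartile of all tested genes (-0.23 to 0.21). Gbp2 and Gbp5 are the 2 tested relatives that were not called, and Gbp2b was not tested.

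The 3 most abundant members, Gbp2, Gbp7 and Gbp3, made up 77.7% of the summed FPKM of the family in KO and 89.2% in WT, and their order was the same in both groups. Gbp2 (chromosome 3, 142620602 to 142638008), which in mice restricts Toxoplasma in its vacuole, had 51.0, 37.3 and 44.5 FPKM in the libraries labelled KO, in replicate order, against 37.9, 31.5 and 31.9 FPKM in those labelled WT. The groups overlapped, because the library labelled KO replicate 2 was below that labelled WT replicate 1. The log2 difference was 0.37 ± 0.13 (SE, limma adjusted p = 0.107), and Gbp2 was called under none of the 13 alternative settings (adjusted p = 0.0531 to 0.644).

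Gbp7 (chromosome 3, 142530342 to 142550149), which is linked to oxidative defence in macrophages, had 33.7, 28.4 and 34.6 FPKM in the libraries labelled KO, against 25.4, 23.8 and 22.1 FPKM in those labelled WT. Every KO library lay above every WT library, and the ratio of the means was 1.36. The log2 difference was 0.43 ± 0.12 (SE, limma adjusted p = 0.0454). The call was close to the threshold: it held in 3 of 13 alternatives (adjusted p = 0.0249 to 0.349) and was lost without each WT library, without KO replicate 1 and without KO replicate 3 (adjusted p = 0.0896, 0.146, 0.156, 0.114 and 0.0712).

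Gbp3 (chromosome 3, 142560026 to 142573209) had the most even values of the called relatives. It had 22.7, 21.9 and 26.0 FPKM in the libraries labelled KO, against 14.5, 15.3 and 15.9 FPKM in those labelled WT, with a ratio of means of 1.55 and no overlap. The log2 difference was 0.59 ± 0.11 (SE, limma adjusted p = 0.0130), and the call held in 9 of 13 alternatives (adjusted p = 0.0102 to 0.125). With WT replicate 1 or WT replicate 2 left out it was not called (adjusted p = 0.0554 and 0.0629).

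Gbp5 (chromosome 3, 142493978 to 142522344), which promotes assembly of the NLRP3 inflammasome, was the relative with the smallest tested difference. It had 4.77, 2.68 and 6.47 FPKM in the libraries labelled KO, against 5.73, 4.86 and 2.60 FPKM in those labelled WT, with the groups fully interleaved. The log2 difference was 0.05 ± 0.30 (SE, limma adjusted p = 0.929), an error wide enough that a difference of the size seen in Gbp3 cannot be told from none. Its sign turned in 4 of the 13 alternatives.

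The chromosome 5 members were less abundant, with summed FPKM of 11.8, 16.6 and 14.6 in the libraries labelled KO and 4.98, 4.79 and 3.42 in those labelled WT, which is 11.1% of the family's sum in KO and 5.39% in WT. Gbp8 (chromosome 5, 105014150 to 105139540, minus strand) had 3.61, 9.47 and 5.47 FPKM in the libraries labelled KO, against 2.15, 1.80 and 1.50 FPKM in those labelled WT. Like Gbp2b it was highest in the library labelled KO replicate 2, and the groups did not overlap. The log2 difference was 1.27 ± 0.28 (SE, limma adjusted p = 0.0217) and the call held in 9 of 13 alternatives. It missed the threshold without each of WT replicates 1, 2 and 3 (adjusted p = 0.0575, 0.0822 and 0.0794).

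Gbp6 (chromosome 5, 105270702 to 105293698) and Gbp9 (chromosome 5, 105077630 to 105139539) encode proteins that are also recruited to parasite vacuoles in mouse cells. Gbp6 had 3.98, 2.85 and 4.70 FPKM in the libraries labelled KO, against 1.67, 1.19 and 0.668 FPKM in those labelled WT, a ratio of means of 3.27 and a log2 difference of 1.16 ± 0.24 (SE, limma adjusted p = 0.0176), on a gene that shares 45.9% of its 50-base words with Gbp10 and 65.0% with the gene model Gm43302. Its call was lost without WT replicate 2, WT replicate 3 and KO replicate 1 (adjusted p = 0.0674, 0.0648 and 0.0503), and its values over all 13 alternatives ran from 0.00657 to 0.183. Gbp9 had 2.33, 2.78 and 3.64 FPKM in the libraries labelled KO, against 0.607, 0.554 and 1.21 FPKM in those labelled WT. Its ratio of means was 3.68 and its log2 difference 1.13 ± 0.23 (SE, limma adjusted p = 0.0169). The difference of Gbp9 was 1.81 with a pseudocount of 0.1 FPKM and 1.89 by voom on recovered reads, and that of Gbp6 was 1.68 and 1.74. The call of Gbp9 was lost without WT replicates 1 and 2 (adjusted p = 0.0641 and 0.0745, range 0.00593 to 0.122 over its alternatives). In both genes every KO library stood above every WT library.

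Gbp4 and Gbp10 were under the filter. Gbp4 had 1.44, 1.21 and 0.731 FPKM in the libraries labelled KO, against 0.459, 0.714 and 0 FPKM in those labelled WT, on 103 and 32 recovered reads, and the groups were barely apart. Gbp10 had 0.432, 0.246 and 0.104 FPKM in the libraries labelled KO, against 0.0908, 0.532 and 0.0454 FPKM in those labelled WT, with the highest value in a WT library. With no filter on low values neither was called (limma adjusted p = 0.223 for Gbp4 and 0.880 for Gbp10). In that fit Gbp3 was the only relative called (adjusted p = 0.0302), where 1.73% of all genes were called higher. A further family row, Gbp11, was at 0 in every library.

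In order of FPKM, Gbp2, Gbp7 and Gbp3 were each apart from the next member in both groups. In the libraries labelled KO, Gbp2b came next at 9.70 ± 4.71 FPKM, and Gbp2b, Gbp8, Gbp5, Gbp6 and Gbp9 each overlapped the next in that order. In the libraries labelled WT, Gbp5 came next at 4.39 ± 1.62 FPKM and the order then ran Gbp8, Gbp6, Gbp9, Gbp4 and Gbp10, each overlapping the next, with Gbp2b last at 0. Summed over the 10 members, the family came to 133, 121 and 131 FPKM in the libraries labelled KO and to 88.5, 80.2 and 75.9 FPKM in those labelled WT. Without Gbp2b the KO sums were 124, 107 and 126 FPKM.

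The KO libraries were not alike across the family. The library labelled KO replicate 2 was the lowest KO library in Gbp2, Gbp3, Gbp5, Gbp6 and Gbp7 and the highest in Gbp2b and Gbp8. Set alone against the 3 WT libraries, with which it shares Y-linked transcripts, it gave 1 called relative, Gbp8 (log2 difference 1.90, limma adjusted p = 0.0104). There the others were at 0.14 for Gbp2, 0.25 for Gbp7, 0.50 for Gbp3, 0.85 for Gbp6, 1.10 for Gbp9 and -0.50 for Gbp5, and these did not pass. That lone library is assumed to vary like the WT libraries. A term for Y-linked transcripts leaves the same comparison, of KO replicate 2 with the WT libraries. Its differences are therefore the same by construction and are no second result. Without KO replicate 2 all 5 calls held.

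**Figure D3:**
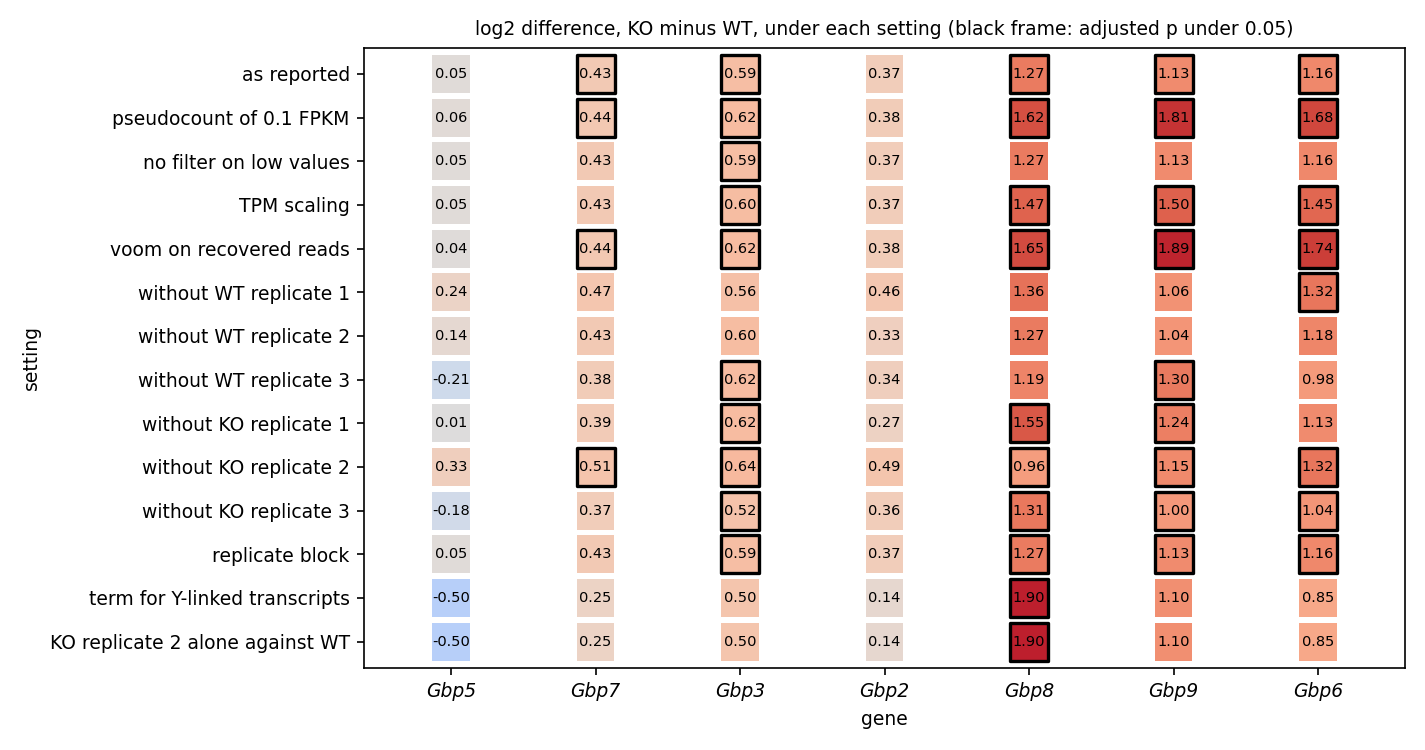
Log2 difference of the 7 tested relatives, KO minus WT as labelled, as reported and under each of the 13 alternatives (red above 0, blue below). Black frames mark adjusted p under 0.05. Without WT replicate 2 no relative is framed, and with the Y-linked term or KO replicate 2 alone Gbp8 is framed.

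Reads of close relatives can be split or lost, and the sources used here do not give the counting rule. Of the distinct 50-base words in the GENCODE M21 transcripts of Gbp2b, 1.84% also occurred in Gbp2 and in no other family row examined. The shares with any other family row were 2.03% for Gbp2, 3.75% for Gbp3, 2.26% for Gbp7 and 0% for Gbp5. They were 7.53% for Gbp4, 8.05% for Gbp9 and 18.1% for Gbp8, which overlap each other on the same strand in that annotation. They were 70.7% for Gbp6 and 84.1% for Gbp10, whose models lie within a longer gene model, Gm43302, so the values of Gbp6 and Gbp10 are uncertain. Those of Gbp4, Gbp8 and Gbp9 are uncertain too, because of their overlap.

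**Figure D4:**
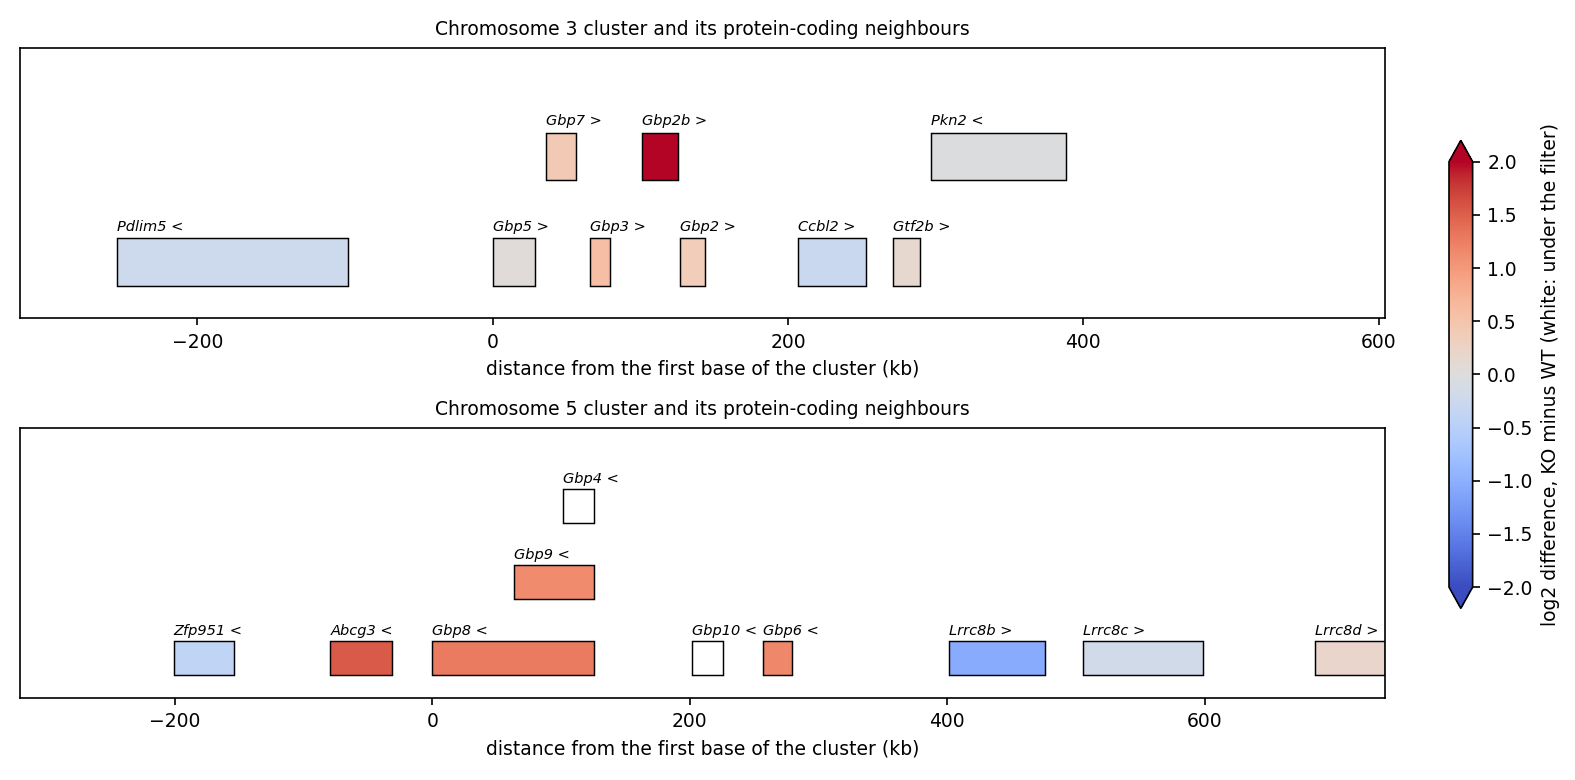
Members of the 2 clusters and the tested protein-coding neighbours within the windows shown, drawn to scale from the first base of each cluster in GENCODE M21, with > and < giving the strand. Colour is the log2 difference, KO minus WT as labelled; white members were under the filter. On chromosome 3 the neighbours lie between -0.27 and 0.15, and on chromosome 5 Abcg3 was higher and Lrrc8b lower in KO.

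The protein-coding genes that start within 1 Mb of the clusters were compared in the same fit. On chromosome 3, 0 of 4 tested neighbours were called in either direction by limma, 0 by voom and 0 at an unadjusted p under 0.05, with differences of -0.27 to 0.15 on the log2 scale. These were Pdlim5, Ccbl2, Gtf2b and Pkn2. On chromosome 5, 1 of 11 rose and 1 fell (10.9% of all tested genes were called). Abcg3, an ABC transporter gene on the Gbp8 side of the cluster, had 9.37, 10.4 and 16.0 FPKM in the libraries labelled KO, against 3.84, 3.12 and 3.11 FPKM in those labelled WT (log2 difference 1.54, limma adjusted p = 0.00267). This call held in all 13 alternatives. On the other side of the cluster Lrrc8b, which encodes a subunit of the volume-regulated anion channel, had 2.88, 1.78 and 3.50 FPKM in the libraries labelled KO, against 6.93, 7.63 and 5.35 FPKM in those labelled WT (-1.05, adjusted p = 0.0170). The call of Lrrc8b was lost without WT replicate 1 (adjusted p = 0.0677) and without WT replicate 2 (0.0851).

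**Figure D5:**
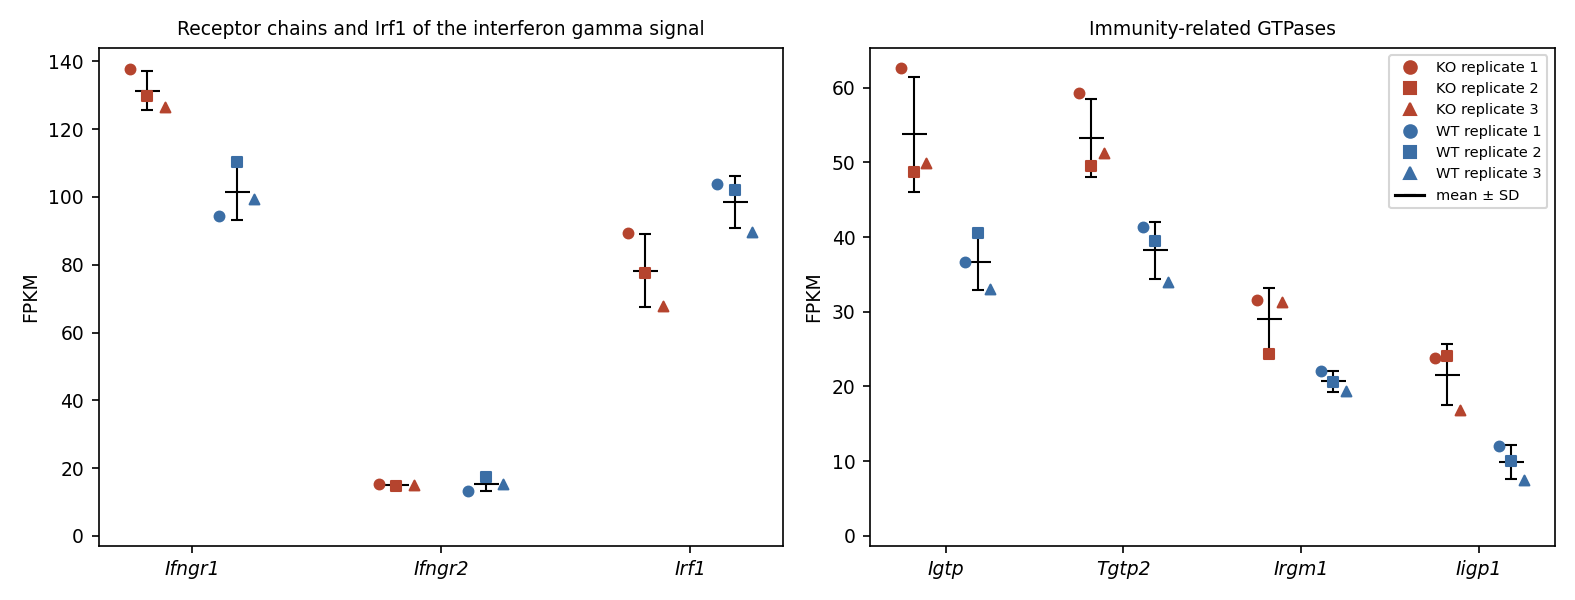
FPKM in each library of interferon gamma receptor chains, of Irf1, and of 4 immunity-related GTPase genes, with the labelled KO libraries left of the WT libraries and black lines for mean and SD of 3 libraries. The 4 GTPase genes are shown because limma called them, out of 10 tested, so their separation follows in part from that choice. At an unadjusted p under 0.05 (limma), 5 of the 10 were higher and 2 lower. Ifngr1 and the 4 GTPase genes shown are higher in every KO library than in any WT library. Irf1 is lower in every KO library than in any WT library (at most 89.3 in KO, at least 89.6 in WT). The groups did not overlap in 32.8% of all tested genes, in either direction.

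Upstream of the family, of 20 tested genes of interferon receptors and their signal to Gbp genes, 1 rose and 0 fell by limma, near the 5.48% and 5.43% of all tested genes, with a median log2 difference of 0.00 against -0.002 for all tested genes. At an unadjusted p under 0.05, 2 were higher and 4 lower (27.5% of all tested genes passed in either direction), and voom called 1 in each direction. Ifng, the cytokine itself, was at 0 in every library. Ifngr1, the ligand-binding chain of its receptor, had 138, 130 and 127 FPKM in the libraries labelled KO, against 94.5, 110 and 99.3 FPKM in those labelled WT (log2 difference 0.37, adjusted p = 0.0365). This call was lost without each WT library and without KO replicates 1 and 2 (adjusted p = 0.135, 0.0738, 0.125, 0.0950 and 0.0684). The other chain, Ifngr2, averaged 15.0 ± 0.326 FPKM in KO and 15.4 ± 2.06 FPKM in WT. The transcription factor gene Irf1 averaged 78.3 ± 10.8 FPKM in KO and 98.4 ± 7.71 FPKM in WT and was not called (limma adjusted p = 0.106; SD, n = 3 each).

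Among partner GTPases that interferon also induces, 4 of 10 tested rose and 0 fell by limma (5.48% and 5.43% of all tested genes), with a median log2 difference of 0.40. At an unadjusted p under 0.05, 5 were higher and 2 lower (27.5% of all tested genes in either direction), and voom called 4 higher and 1 lower. Iigp1, an effector that disrupts parasite vacuoles, had 23.8, 24.0 and 16.8 FPKM in the libraries labelled KO, against 12.1, 10.1 and 7.54 FPKM in those labelled WT (adjusted p = 0.0105), and was called in 12 of 13 alternatives. Igtp and Irgm1, which regulate such effectors, and Tgtp2 rose by 0.53, 0.46 and 0.47 on the log2 scale. Without any 1 WT library, and without KO replicate 1, the number of these GTPases called was 1, and with a term for Y-linked transcripts it was 0 (limma). The regulatory GTPase Irgm2 and the GTPase Ifi47 did not pass (-0.04 and -0.26). Tgtp2 is a near-identical copy of Tgtp1, so its reads may be split.

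Of 39 tested interferon-stimulated genes outside both families, 2 rose and 1 fell (5.48% and 5.43% of all tested genes), with a median log2 difference of -0.02. One that rose, Ifi44l, was at 0 in all libraries labelled WT and so entered the test only through those labelled KO. Ifi44l, which lies on the same chromosome as Gbp2b (chromosome 3, from 151758737), had 29.9, 17.3 and 31.1 FPKM in the libraries labelled KO and 0 in those labelled WT, and was lowest in the KO library where Gbp2b was highest. The membrane protein gene Ifitm1 rose by 1.03, and the chemokine gene Cxcl10, a classical target of interferon gamma, fell by 0.96. Cxcl10 missed the threshold without WT replicate 2 and without WT replicate 3 (limma adjusted p = 0.0808 and 0.0733).

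Downstream, of 22 tested genes of inflammasomes and autophagy with which these proteins work, 2 rose and 2 fell, not far from the 5.48% and 5.43% of all tested genes, with a median log2 difference of 0.09. The autophagy gene Map1lc3b rose by 0.47 and Pim1, a kinase reported to act on human GBP1, rose by 3.01 on the log2 scale. The cytokine gene Il1b fell by 1.87 and the sensor gene Naip5 by 1.16. Map1lc3b missed the threshold without each WT library (limma adjusted p = 0.0549, 0.0514 and 0.0583). Naip5 was called in 3 of 13 alternatives, and the inflammasome genes Casp1, Casp4, Gsdmd, Pycard and Aim2 did not pass (differences of -0.09 to 0.10).

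Over the 6 libraries, the tested genes whose log2(FPKM + 1) was most like that of Gbp2b were Ccdc166, Asns, Dok1, Nif3l1 and Mir451 (Pearson's r 0.994 to 0.998). For Gbp2, the most abundant member, they were Btc, Smyd3, Ostm1, Ppcs and Mob4 (0.985 to 0.994). These values describe 6 libraries in 2 groups, and all points share the group difference. Mir451 passed the filter only through the libraries labelled KO. It stood on 2, 2 and 1 recovered reads there and on 0 in those labelled WT.

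Marker genes of other cell types moved between the same libraries, and their part in the Gbp values was not tested. The summed FPKM of 15 macrophage and dendritic cell markers was 58.6, 95.7 and 175 in the libraries labelled KO and 58.4, 74.3 and 70.8 in those labelled WT, with Marco at 0. For 15 T and NK cell markers it was 203 to 323 in KO and 364 to 424 in WT, mostly from Nkg7, with Cd3g and Ncr1 at 0. For 11 neutrophil markers it was 29.2 to 167 in KO and 120 to 245 in WT, for 12 endothelial and stromal markers 32.6 to 37.7 in KO and 44.9 to 48.4 in WT with Lyve1 at 0, for 12 B and plasma cell markers 163 to 3617 in KO and 348 to 369 in WT, for 8 mast cell markers 61.0 to 112 in KO and 41.8 to 72.1 in WT, and for 8 erythroid markers 999.7 to 1869 in KO and 521 to 962 in WT. By limma, 3 of 6 tested mast cell markers (Cma1, Tpsb2 and Hdc), the erythroid marker Ermap, Plvap of the endothelium and the NK cell receptor gene Klrb1c rose, and Nkg7, Cd68, Pdgfrb and Cxcl12 fell. Among the gate's own stem and progenitor genes, Slamf1, Tek and Procr rose and Flt3 and Cd34 fell. In bulk RNA, fewer cells of a type and less RNA per cell cannot be told apart.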

How the data were processed

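RNA was measured in 3 libraries labelled KO and 3 labelled WT; SMART-Seq v4 cDNA went into Nextera XT libraries, per the labels' protocols, and these keep no strand. The authors deposited FPKM values. Per the submitters' processing notes the build was mm10, and the tools named, with no roles, were DESeq2 1.18.1, HTSeq 0.6.1, TopHat2 2.1.1 and bcl2fastq 2.19.1.403. The annotation was not found in the sources used here. The members and gene lists were chosen with earlier results of these data known.

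KO was compared with WT in limma 3.58.1 (R 4.3.3; lmFit, eBayes with a trend) on log2(FPKM + 1), two-sided, for genes whose mean reached 1 FPKM, with Benjamini-Hochberg adjustment over all 11371 genes. On this scale the change of a low gene is understated. Lists are described by counts and medians, with up to 4 called genes of each pathway list named. Within each of the 17183 genes above 0 in 2 or more libraries, FPKM values stood as whole numbers after scaling by a divisor per library, which gave recovered reads. The gene length this implied equalled the GENCODE M21 exon length for Gbp2 and Gbp2b, and differed from it for the other 8 members, whose reads are the smallest numbers giving a whole length. The alternatives were another pseudocount (0.1 FPKM), no filter, TPM scaling, voom on recovered reads, leaving out each library, a replicate block, a term for Y-linked transcripts and KO replicate 2 alone. Python 3.11.15 with pandas 2.3.3 and matplotlib 3.10.9 was used for tables and plots. Values of a few listed genes are not reported here.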

Additional observations from a re-analysis of the deposited data

How the results depend on the processing

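Over 13 alternative settings the 7 tested relatives gave 91 differences. Of these, 58 kept their direction and their side of the threshold, which includes Gbp2 and Gbp5 staying uncalled. Another 29 kept their direction and lost the call, and 4, all of Gbp5, changed sign. The call was kept in 9 of 13 settings for Gbp3, 7 for Gbp6, 3 for Gbp7, 9 for Gbp8 and 8 for Gbp9. With no filter and with the replicate block the differences equal those reported by construction, so no direction could change there. Gbp5 was at -0.21 without WT replicate 3 and -0.18 without KO replicate 3. It was at -0.50 both with a Y-linked term and with KO replicate 2 alone against WT, which give the same difference by construction. It ran from -0.21 to 0.33 when 1 library was left out. The number of relatives called higher was 0 to 5 when 1 library was left out, and 1 with no filter, with the Y-linked term and with KO replicate 2 alone; 0 were called lower by limma in any setting, voom included, and 0 at an unadjusted p under 0.05. Of all genes, 376 to 1669 were called when 1 library was left out, 588 with no filter, 805 with the replicate block, 373 with the Y-linked term and 826 with KO replicate 2 alone, against 1240 as reported. Same-numbered libraries did not deviate together (r of -0.03, 0.05 and -0.12). No pairing by number was seen, though 3 libraries per group cannot exclude one. With the replicate block 4 relatives were called, and Gbp7 was not (limma adjusted p = 0.0908). The causes of these changes were not tested. At 19 and 14 recovered reads in KO and WT, a difference in Gbp10 was not detectable at this depth.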
